A study of Mus musculus with 2 samples.

Results

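The genes of the translation factors, the proteins that start, extend and end protein synthesis on the cytosolic ribosome, were compared between CCR4b RNAi and control RNAi cells. Members were all genes whose symbol begins with Eif, Eef, Etf1 or Gspt1 on a probe set annotated with that symbol alone, leaving out the eIF2 kinases named Eif2ak. This gave 57 genes on 155 probe sets, out of 18194 genes represented on the array by a probe set with 1 symbol. Some factor genes, among them Eif1, Eif2s1 and Eif4g1, had no such probe set and are not among the members. The choice of gene set was made with results of this comparison known, so the values below describe it and test nothing.

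Total RNA came from NIH3T3, a spontaneously immortalised line of mouse embryo fibroblasts, grown in serum-containing medium. The CCR4b RNAi culture carried a retroviral hairpin directed at the mRNA of CCR4b (CNOT6L), a catalytic deadenylase of the CCR4-NOT complex. The control RNAi culture received a control hairpin by the same kind of virus, so both cultures were infected, and no hairpin sequence, clone or time after infection is given in the sources used here. Each group had 1 Affymetrix array, so no value has a replicate error and no test between the groups was possible. "Lower" and "higher" describe this pair of arrays only, with CCR4b RNAi set over control RNAi, and fewer cells of a type and less RNA per cell cannot be told apart.

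Protein synthesis begins when eIF2, loaded with GTP and the initiator tRNA, joins the small ribosomal subunit together with eIF1, eIF1A, eIF3 and eIF5. The eIF4 factors bind the mRNA cap, unwind the leader and bridge to poly(A)-binding protein, which is where a deadenylase and the initiation machinery meet on the same mRNA. After each round eIF2B recharges eIF2 with GTP, a step that phosphorylation of eIF2 blocks under stress. Elongation is driven by eEF1A and eEF2, and release by eRF1 and eRF3.

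The targeted gene, Cnot6l, read 43.0 units on the CCR4b RNAi array and 102 on the control array on its brightest probe set, 2.38-fold lower. The related deadenylase gene Cnot6 was lower too, with 138 units after CCR4b RNAi and 222 in the control (1.61-fold). Its other probe sets were 2.04-fold, 1.74-fold and 1.81-fold lower, and the cause was not tested. The fibroblast markers, 8 of 8, examined were measured, with signals of 130 to 3993 units after CCR4b RNAi and 221 to 4022 in the control, whereas all endothelial and muscle markers lay below the floor. Epcam (29.5 units in CCR4b RNAi cells against 19.4 in control cells) and Cd68 (9.42 units in CCR4b RNAi cells against 24.0 in control cells) were the measured markers of other cell types. The floor of 8.07 units is the median of all values of both arrays, and a gene was measured if its brightest probe set reached it on at least 1 array, as 11915 genes did. The Actb 3'/5' signal ratio, which rises as RNA degrades, was 1.46 after CCR4b RNAi and 1.35 in the control, the Gapdh ratio was 0.819 after CCR4b RNAi and 0.824 in the control, and their part in the results was not tested.

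Most translation factor genes were slightly lower in the CCR4b RNAi culture. Of the 57 genes, 54 were measured, all of them above the floor on both arrays, and Eif4a3, Eif4e3 and Eef2kmt were below it on both. The median log2 ratio of the 54 was -0.35 (1.27-fold lower), against -0.07 for all 11915 measured genes. With loess the medians were -0.22 for the members and -0.0079 for all genes. The ratio was below 0 in 46 of the 54, where 56% of all measured genes were below 0, and in 42 to 50 of the 54 under other scalings of the arrays. At least 1.5-fold lower were 10 members, a share of 18.5% beside a background of 14.6%, and at least 1.5-fold higher were 3, a share of 5.56% beside 11.3%. The first of these rests on the scaling: with quantile normalization or a loess correction on signal it was 6 members (11.1%), below the 13.0% and 13.2% of all genes under the same settings, and with each array divided by its median value it was 14 (25.9%, beside 19.0%). With the floor at the 75th percentile, 1 member was at least 1.5-fold higher (1.96%, beside 6.48% of all genes). Only Eif1ad among the 54 was at least 2-fold lower, and none was at least 2-fold higher, where 4.48% and 3.74% of all genes were. Within 1.5-fold were 41 of the 54 members, beside 8819 of all 11915 measured genes, a like share.

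**Figure D1:**
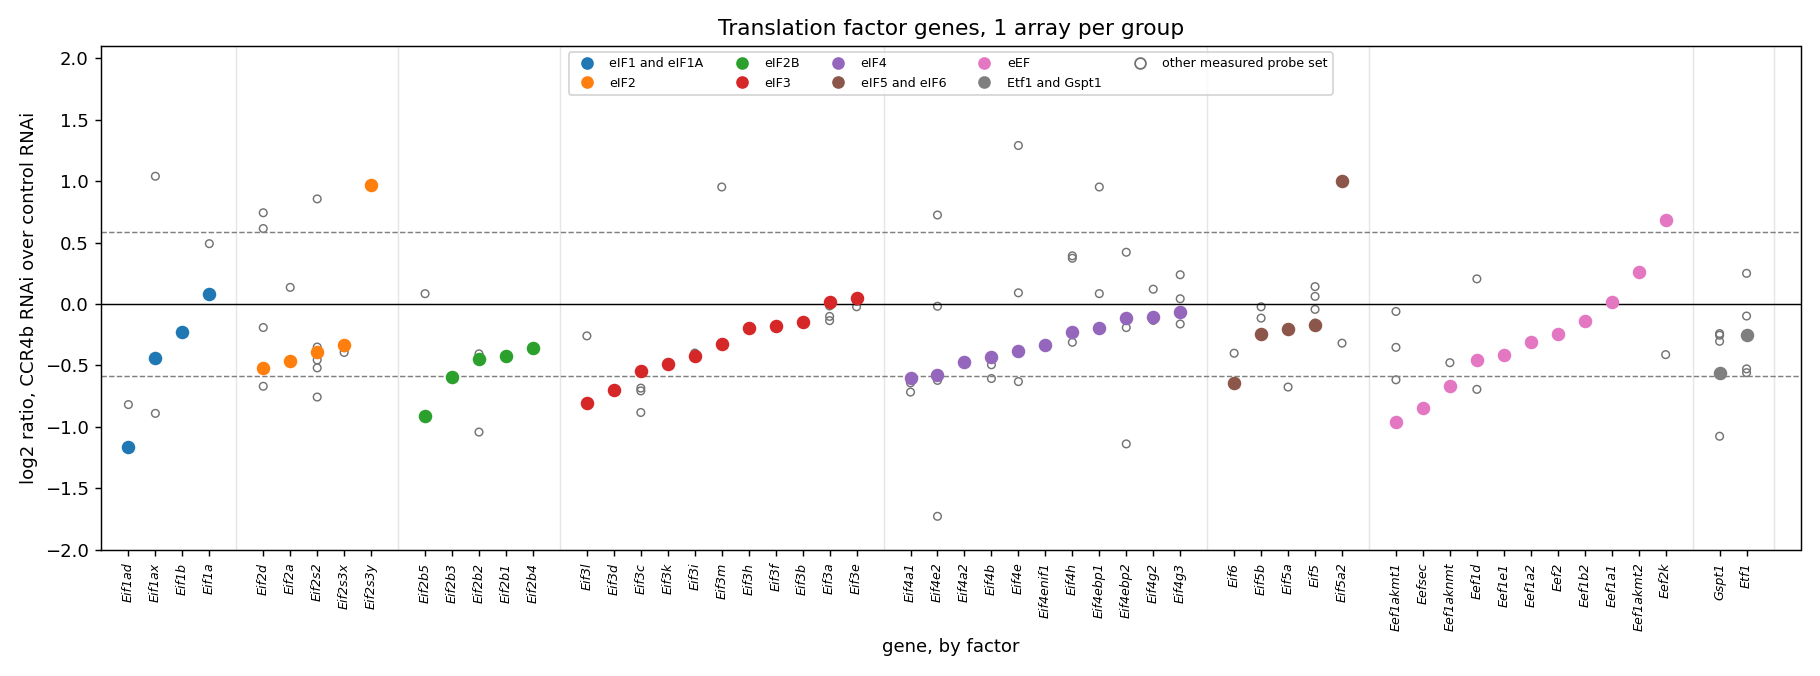
Log2 ratio of CCR4b RNAi over control RNAi for the 54 measured genes, grouped by factor and ordered by ratio, with filled points for the probe set that stands for the gene, open circles for its other measured probe sets and dashed lines at 1.5-fold. Most filled points lie between 0 and the lower dashed line, and Eif2s3y, Eif5a2 and Eef2k stand above the upper one.

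The ratio of all genes varied with signal. Of the 54 members, 29 fell in the brightest of 10 equal classes of mean signal, in which the median log2 ratio of all genes was -0.17 with a robust SD (scaled median absolute deviation) of 0.36. Set against the median of its own class, the median member lay at -0.22, and 42 of 54 lay below that median (77.8%, where 50% of genes do by construction). Across the members, 39 were within 1 robust SD of their class (72.2%, background 67.2%). A further 12 were more than that below (22.2%, background 16.2%) and 3 more than that above (5.56%, background 16.6%). The 12 were Eif1ad, Eif2b3, Eif2b5, Eif3c, Eif3d, Eif3l, Eif4a1, Eif4e2, Eif6, Eefsec, Eef1akmt1 and Eef1aknmt, and the 3 were Eif2s3y, Eif5a2 and Eef2k. The share of members within 1 robust SD was thus near that of all genes.

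Probe sets of one gene did not always run the same way. Among the 35 members with at least 2 measured probe sets, 14 were lower on every one, 1 (Eif1a) was higher on every one at the deposited scale, and 20 were mixed. No share over all genes is set beside these counts, so they describe the members alone. Agreement differed with signal. Member probe sets with a mean signal of at least 100 units were lower in 69 of 79 cases (87.3%, against 65.6% of the 5090 such probe sets of all genes), with a median log2 ratio of -0.40. Those under 100 units were lower in 32 of 55 (58.2%, against 49.7%), with a median of -0.10. The split at 100 units was chosen after the values were seen.

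**Figure D2:**
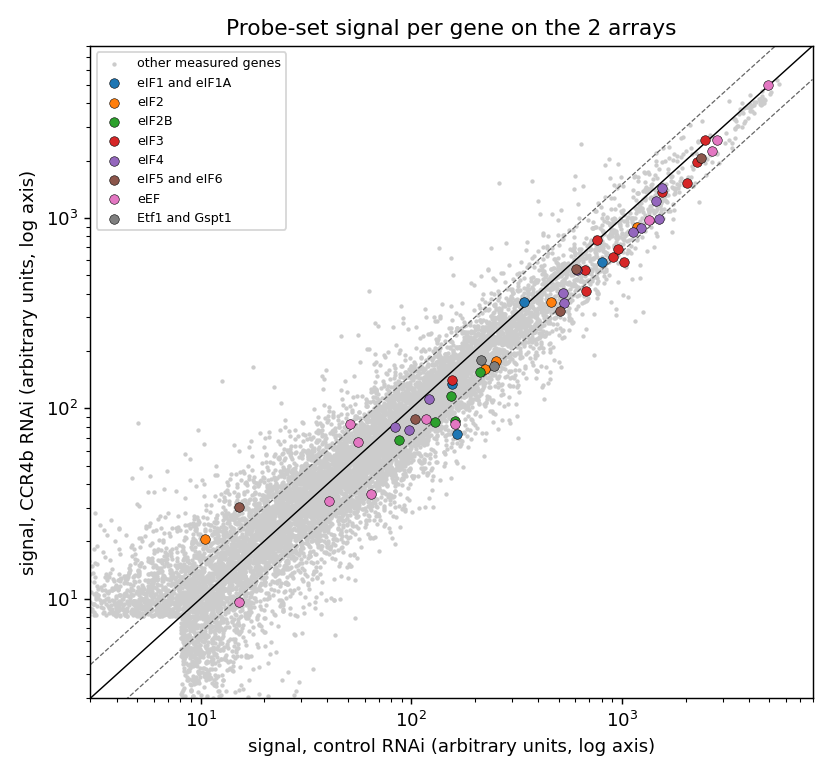
Signal per gene on the CCR4b RNAi array (vertical) against the control RNAi array (horizontal), both on log axes, for all measured genes (grey) and the 54 translation factor genes (coloured by factor), with the line of equality and dashed lines at 1.5-fold. The members spread over nearly the whole range of signal, and most lie just under the line of equality.

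The factors eIF1 and eIF1A keep the small subunit open while it searches for a start codon. The 4 measured genes with Eif1 names (Eif1a, Eif1ax, Eif1b and Eif1ad) had a median log2 ratio of -0.33, which was -0.18 with quantile normalization or loess and -0.23 without Eif1ad. Eif1ax, which encodes eIF1A from the X chromosome, read 590 units after CCR4b RNAi and 799 in the control (1.35-fold lower), but its dimmer probe sets read 27.0 units in CCR4b RNAi cells against 13.2 in control cells, and 8.38 units in CCR4b RNAi cells against 15.5 in control cells. Eif1a, a second eIF1A gene, read 363 units after CCR4b RNAi and 344 in the control, and 318 units after CCR4b RNAi and 226 in the control on a second probe set, which can cross-hybridise. Its log2 ratio of 0.08 on the first was -0.01 with arrays scaled to equal medians, 0.28 with quantile normalization and 0.26 with loess. Eif1b, a close relative of eIF1, read 133 units in CCR4b RNAi cells against 157 in control cells. The lowest ratio of all members was that of Eif1ad, a protein that carries an eIF1A domain and is not itself an initiation factor. It read 73.4 units after CCR4b RNAi and 165 in the control (2.24-fold lower, percentile 3.02 of its signal class), and 31.9 units in CCR4b RNAi cells against 56.3 in control cells on its second probe set.

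Of eIF2, which carries the initiator tRNA to the ribosome, only beta and gamma subunit genes were among the members. These were lower apart from 1 dim gene, and the alpha subunit gene Eif2s1 was not read. Eif2s2, which encodes the beta subunit, read 899 units after CCR4b RNAi and 1177 in the control (1.31-fold lower). Its next 4 probe sets were lower as well, with log2 ratios of -0.45, -0.52, -0.76 and -0.35, and only the dimmest went the other way, with 14.6 units after CCR4b RNAi and a control value below the floor. Eif2s3x, the X-linked gene of the gamma subunit, read 363 units in CCR4b RNAi cells against 458 in control cells (1.26-fold lower), and log2 ratios on its 3 probe sets lay close together at -0.33, -0.36 and -0.39. Its Y-linked counterpart Eif2s3y read 20.6 units after CCR4b RNAi and 10.5 in the control (1.95-fold higher), a dim signal in a class with a robust SD of 0.64. The other Eif2s3y probe set was below the floor on both arrays. Eif2a and Eif2d are not eIF2 subunits but separate proteins able to bring tRNA to the ribosome. They read 161 units in CCR4b RNAi cells against 223 in control cells, and 177 units in CCR4b RNAi cells against 253 in control cells, with log2 ratios of -0.47 and -0.52, and each had a dimmer probe set with a ratio above 0. The median of the 5 genes was -0.39, and it was -0.23 with loess and -0.19 when the median over a gene's probe sets was used.

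All 5 genes of eIF2B, the exchange factor that returns eIF2 to its GTP-bound form, were lower. Eif2b5, which encodes the catalytic epsilon subunit, read 86.1 units after CCR4b RNAi and 162 in the control (1.88-fold lower, log2 ratio -0.91), while its dim second probe set read 8.56 units after CCR4b RNAi and below the floor in the control. Eif2b3, the gamma subunit that pairs with epsilon, read 85.2 units in CCR4b RNAi cells against 129 in control cells (1.51-fold lower). Eif2b2, the beta subunit, read 155 units in CCR4b RNAi cells against 212 in control cells on its brightest probe set (1.36-fold lower), which can cross-hybridise, and 69.4 units in CCR4b RNAi cells against 143 in control cells on one that is not of that kind (2.06-fold lower). The alpha subunit gene Eif2b1 read 116 units in CCR4b RNAi cells against 155 in control cells, and the delta subunit gene Eif2b4 read 68.2 units in CCR4b RNAi cells against 87.5 in control cells. The median log2 ratio of the 5 was -0.45 (-0.29 with quantile normalization or loess), and relative to genes of like signal all 5 lay below the class median, by -0.22 to -0.77. Only Eif2b5 and Eif2b3 lay more than 1 robust SD below it.

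The subunits of eIF3, the large scaffold that holds the small subunit, eIF2 and the mRNA together, differed among themselves. Eif3l had the lowest ratio, with 588 units after CCR4b RNAi and 1026 in the control (1.75-fold lower). Eif3k, whose product binds that of Eif3l at the edge of the complex, read 683 units in CCR4b RNAi cells against 958 in control cells (1.40-fold lower). Eif3d, which encodes a cap-binding subunit, read 414 units in CCR4b RNAi cells against 673 in control cells (1.62-fold lower).

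Eif3c, a core subunit, was lower on each of 4 probe sets. The brightest read 620 units after CCR4b RNAi and 907 in the control, a log2 ratio of -0.55, and the others had -0.68, -0.88 and -0.71. Eif3i, a WD-repeat subunit, read 1520 units in CCR4b RNAi cells against 2036 in control cells, with log2 ratios of -0.42 and -0.40 on its pair of probe sets. At the other end, Eif3a, the largest subunit, read 768 units after CCR4b RNAi and 758 in the control, and its 3 other probe sets had log2 ratios of -0.13, -0.02 and -0.10.

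Eif3e was also nearly equal on the 2 arrays, with 2567 units after CCR4b RNAi against 2480 in the control, and log2 ratios on the 3 measured probe sets of 0.05, -0.02 and 0.02. Scaling to equal medians gave log2 ratios of -0.07 for Eif3a and -0.04 for Eif3e, whereas quantile normalization gave 0.16 and 0.20 and loess gave 0.19 for each. Eif3b (140 units in CCR4b RNAi cells against 155 in control cells), Eif3f (1371 units in CCR4b RNAi cells against 1551 in control cells) and Eif3h (1968 units in CCR4b RNAi cells against 2255 in control cells) had log2 ratios of -0.15, -0.18 and -0.20, within 0.03 of the median of their signal class. Eif3m read 531 units in CCR4b RNAi cells against 665 in control cells on a probe set that can cross-hybridise, and 41.5 units in CCR4b RNAi cells against 21.5 in control cells on its other one, which can too. The 11 genes had a median log2 ratio of -0.32, with Eif3l, Eif3d and Eif3c more than 1 robust SD below their class. Of the 11, 10 were in the brightest class, and the median was -0.15 with either quantile normalization or a loess correction on signal.

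**Figure D3:**
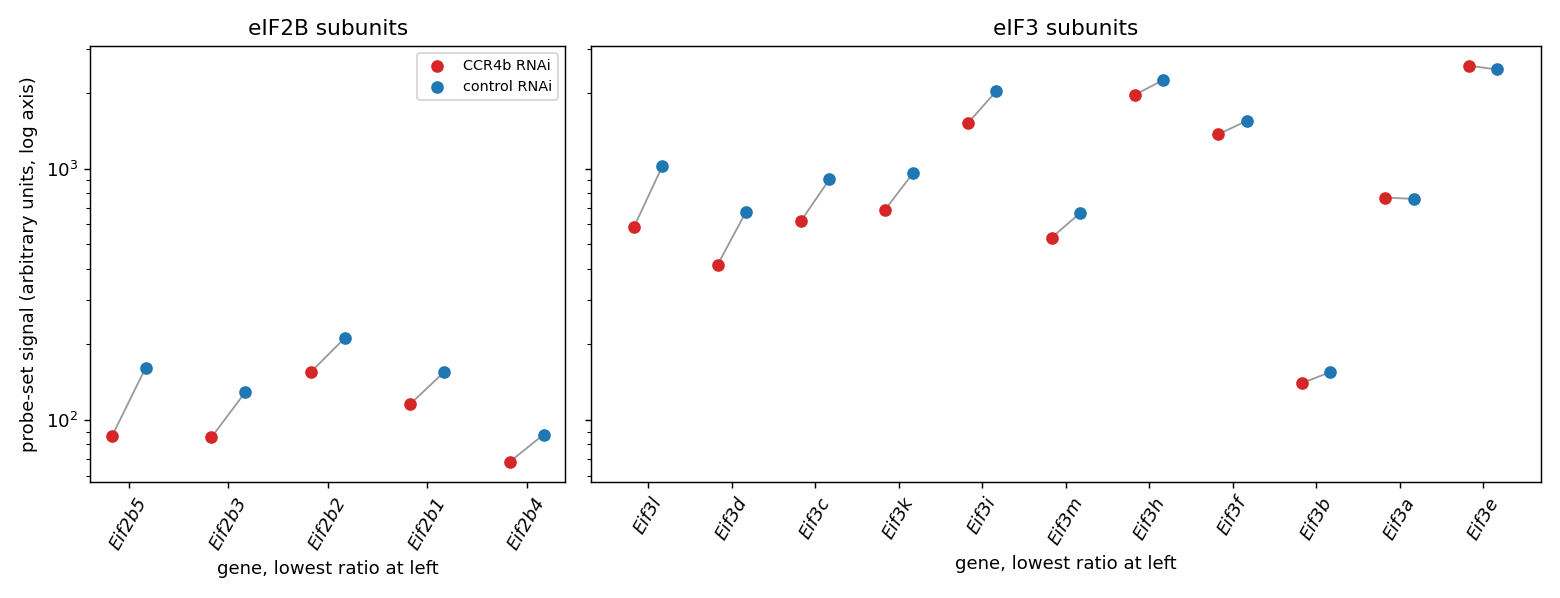
Probe-set signal (arbitrary units, log axis) of each eIF2B and eIF3 subunit gene, with CCR4b RNAi at the left of each pair and control RNAi at the right, ordered from the lowest ratio. Every eIF2B gene is lower after CCR4b RNAi, whereas the eIF3 genes run from Eif3l (588 units in CCR4b RNAi cells against 1026 in control cells) to Eif3e (2567 units in CCR4b RNAi cells against 2480 in control cells).

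The eIF4 genes, which act at the mRNA cap, were all lower on their brightest probe sets as deposited, although Eif4g2, Eif4g3 and Eif4ebp2 turned above 0 with a loess correction. Their median log2 ratio was -0.34 over 11 measured genes, and it was -0.20 with quantile normalization or the loess correction. The helicase gene Eif4a1 was the lowest, and its 3 probe sets ran together. It read 986, 967 and 755 units after CCR4b RNAi and 1493, 1509 and 1241 in the control, 1.51-fold, 1.56-fold and 1.64-fold lower. Eif4a2, which encodes the second cytosolic eIF4A helicase, read 887 units in CCR4b RNAi cells against 1229 in control cells (1.39-fold lower), so both helicase genes lay on the same side. Eif4b and Eif4h encode cofactors of that helicase. Eif4b read 839 units after CCR4b RNAi and 1130 in the control, with log2 ratios of -0.43, -0.61 and -0.49 on its 3 probe sets, and Eif4h read 1228 units in CCR4b RNAi cells against 1440 in control cells (1.17-fold lower) on a probe set that can cross-hybridise. Without such probe sets, Eif4h rested on a dimmer one, with a log2 ratio of 0.39.

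Cap-binding genes were also lower on their bright probe sets. Eif4e, the cap-binding subunit, read 403 units in CCR4b RNAi cells against 523 in control cells (1.30-fold lower) and 119 units in CCR4b RNAi cells against 184 in control cells on the next probe set, but 24.8 units in CCR4b RNAi cells against 23.3 in control cells on a dim one. The dimmest Eif4e probe set ran the other way, with 19.7 units after CCR4b RNAi and a control value below the floor, at least 2.45-fold higher. Eif4e2, a relative that binds the cap and blocks initiation, read 357 units in CCR4b RNAi cells against 532 in control cells (1.49-fold lower) and 273 units in CCR4b RNAi cells against 420 in control cells (1.54-fold lower), with log2 ratios between -1.73 and 0.72 on its 3 dim probe sets. The scaffold genes Eif4g2 and Eif4g3 read 1433 units in CCR4b RNAi cells against 1538 in control cells, and 79.9 units in CCR4b RNAi cells against 83.3 in control cells. Their log2 ratios of -0.10 and -0.06 turned to 0.05 each under the loess correction, so no direction is given. Eif4ebp1 and Eif4ebp2 encode inhibitors that let go of eIF4E when mTOR phosphorylates them. The first read 531 units in CCR4b RNAi cells against 608 in control cells on one probe set and 375 units in CCR4b RNAi cells against 354 in control cells on another, and the second read 112 units in CCR4b RNAi cells against 121 in control cells (log2 ratio -0.12, or 0.02 under loess). Eif4enif1, which encodes a transporter of eIF4E, read 77.0 units in CCR4b RNAi cells against 97.2 in control cells (1.26-fold lower).

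Of the eIF5 and eIF6 genes, only the dim Eif5a2 was higher on the probe set that stands for the gene. Eif6, whose product keeps free large subunits from joining small ones, read 326 units after CCR4b RNAi and 509 in the control (1.56-fold lower) and 22.8 units in CCR4b RNAi cells against 30.1 in control cells on its second probe set. Eif5, the factor that triggers GTP hydrolysis by eIF2, read 538 units in CCR4b RNAi cells against 607 in control cells, and its 5 probe sets had log2 ratios between -0.17 and 0.14. Eif5b, which joins the subunits, read 87.7 units in CCR4b RNAi cells against 104 in control cells, with log2 ratios of -0.24, -0.11 and -0.02 over 3 probe sets. Eif5a encodes the hypusine-bearing factor that helps ribosomes past difficult peptide bonds. It read 2054 units in CCR4b RNAi cells against 2368 in control cells on one probe set (1.15-fold lower) and 515 units in CCR4b RNAi cells against 823 in control cells on the other (1.60-fold lower), both open to cross-hybridisation. Its paralogue Eif5a2 stood apart in sign, with 30.4 units after CCR4b RNAi and 15.2 in the control (just under 2-fold higher, log2 ratio 0.9997). A second Eif5a2 probe set read below the floor after CCR4b RNAi and 10.1 units in the control, so the higher value rests on 1 dim probe set. The median log2 ratio of the 5 genes was -0.20, and it was -0.12 with quantile normalization, -0.0615 with loess and -0.11 with the median over probe sets.

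Among the elongation genes the abundant factors themselves differed little. Eef1a1, which encodes the main carrier of aminoacyl-tRNA to the ribosome, read 4972 units after CCR4b RNAi and 4910 in the control. Its log2 ratio of 0.02 was -0.08 with scaling to equal medians, 0.086 with quantile normalization and 0.14 with loess. Eef2, the translocase, read 2247 units in CCR4b RNAi cells against 2664 in control cells (1.19-fold lower), and Eef1b2, an exchange subunit for eEF1A, read 2557 units in CCR4b RNAi cells against 2819 in control cells (log2 ratio -0.14, or 0.03 with quantile normalization). Eef1d, another exchange subunit, was lower on its bright probe sets, with 973 units in CCR4b RNAi cells against 1335 in control cells (1.37-fold) and 517 units in CCR4b RNAi cells against 836 in control cells (1.62-fold, on a probe set that can cross-hybridise). Eef1a2, the eEF1A form of muscle and neurons, read 32.7 units in CCR4b RNAi cells against 40.5 in control cells, and Eef1e1, which encodes a small protein of the multi-synthetase complex, read 88.1 units in CCR4b RNAi cells against 117 in control cells.

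The enzymes and accessory proteins of elongation held the larger differences. Eef1akmt1, a lysine methyltransferase of eEF1A, read 83.0 units after CCR4b RNAi and 162 in the control (1.95-fold lower), with log2 ratios of -0.62, -0.35 and -0.06 on its 3 other probe sets. Eefsec, the elongation factor for selenocysteine, read 35.7 units in CCR4b RNAi cells against 64.1 in control cells (1.80-fold lower). Eef1aknmt, a further eEF1A methyltransferase, read 9.58 units in CCR4b RNAi cells against 15.2 in control cells (1.59-fold lower), close to the floor. Eef1akmt2 had the opposite sign, with 66.6 units in CCR4b RNAi cells against 55.7 in control cells (1.20-fold higher). Eef2k, the kinase that phosphorylates eEF2 and slows elongation, was higher. It read 82.2 units after CCR4b RNAi and 51.1 in the control (1.61-fold) on a probe set that can cross-hybridise. The next probe set, not of that kind, read 31.8 units in CCR4b RNAi cells against 19.7 in control cells (1.61-fold). Another near the floor ran the other way, with 8.11 units in CCR4b RNAi cells against 10.8 in control cells. The median of the 11 measured eEF genes was -0.31.

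Release factors were lower on their bright probe sets. Gspt1 encodes eRF3a, the GTPase of termination, which also binds poly(A)-binding protein. It read 166 units after CCR4b RNAi and 246 in the control (1.48-fold lower) on a probe set that can cross-hybridise, and 173 units in CCR4b RNAi cells against 213 in control cells on the next (1.23-fold). All 5 measured Gspt1 probe sets were lower, with log2 ratios between -1.08 and -0.24. Etf1, which encodes eRF1, the protein that reads stop codons, read 180 units in CCR4b RNAi cells against 214 in control cells (1.19-fold lower). Its log2 ratios were -0.56 and -0.53 on the next 2 probe sets and 0.25 and -0.10 on dim ones. Both genes were within 1 robust SD of their signal class, and their median log2 ratio of -0.41 was -0.25 with quantile normalization and -0.24 with loess.

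Related parts of the translation apparatus gave a frame for these values, as descriptions with no test between sets. The 41 measured genes of cytosolic ribosomal proteins had a median log2 ratio of -0.18, which is -0.01 relative to their signal classes. Of these genes, 2 were at least 1.5-fold lower (4.88%, where 14.6% of all measured genes were). The 54 translation factors lay between these and the other sets, at -0.35 and -0.22 on the same 2 scales. Mitochondrial ribosomal proteins had -0.55 and -0.40, with 36 of 76 at least 1.5-fold lower (47.4%, background 14.6%). Cytosolic aminoacyl-tRNA synthetases had -0.73 and -0.56, with 14 of 19 at least 1.5-fold lower (73.7%, background 14.6%). Ratios below 0 made up 85.2% of the translation factors and 95.1% of the cytosolic ribosomal proteins (background 56%). They made up 97.4% of the mitochondrial ribosomal proteins and 100% of the synthetases.

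**Figure D4:**
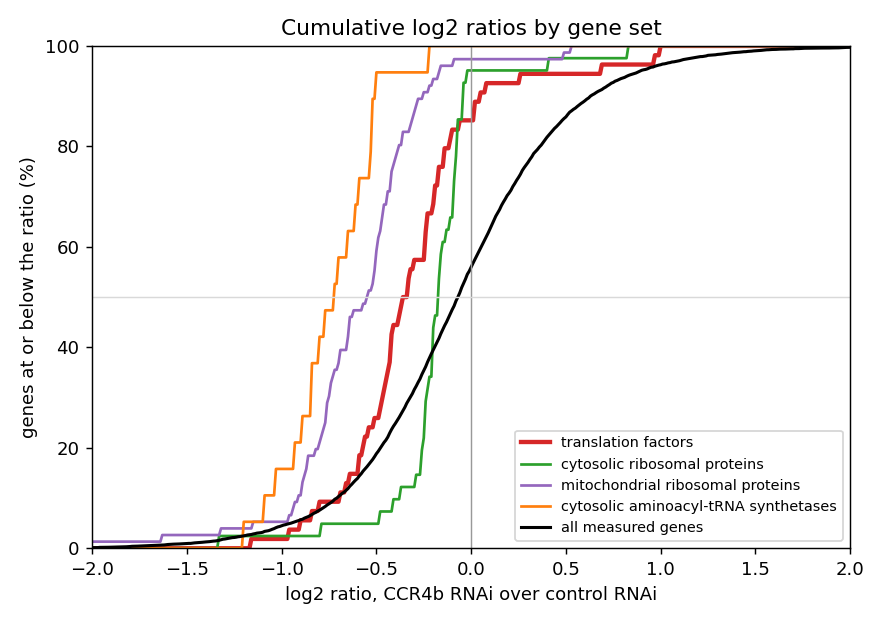
Percentage of genes (vertical) at or below each log2 ratio of CCR4b RNAi over control RNAi (horizontal) for translation factors, cytosolic ribosomal proteins, mitochondrial ribosomal proteins, cytosolic aminoacyl-tRNA synthetases and all measured genes. The translation factor curve crosses 50% at -0.35, left of all genes (-0.07) and right of the aminoacyl-tRNA synthetases (-0.73).

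Regulators that act on the factors were evenly split. Of 24 measured genes in a list of eIF2 kinases, phosphatase subunits and mTOR pathway members, 12 had a ratio below 0 and 12 above, the median was -0.03 (0.042 with quantile normalization), and differences of 1.5-fold or more numbered 3 lower (12.5%, background 14.6%) and 2 higher (8.33%, background 11.3%). Impact, which restrains the eIF2 kinase GCN2, read 412 units after CCR4b RNAi and 258 in the control (1.60-fold higher), with a like log2 ratio of 0.72 on its second probe set. Eif2ak4, the gene of GCN2, read 95.7 units in CCR4b RNAi cells against 62.8 in control cells (1.52-fold higher) and 11.4 units in CCR4b RNAi cells against 8.36 in control cells on a dim probe set. Ppp1r15a, which encodes GADD34, the stress-induced subunit of an eIF2 phosphatase, read 44.3 units in CCR4b RNAi cells against 69.7 in control cells (1.57-fold lower). Eif2ak1, the haem-regulated eIF2 kinase, read 40.9 units in CCR4b RNAi cells against 74.1 in control cells on the probe set that stands for it but had log2 ratios of 0.08 and 0.14 on its others. Mlst8, an mTOR subunit, likewise read 11.8 units in CCR4b RNAi cells against 32.4 in control cells on one probe set and 19.5 units in CCR4b RNAi cells against 19.0 in control cells on the other.

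Partners of the factors were lower in 18 of 20 measured genes (90%, background 56%), with a median log2 ratio of -0.33, and differences of 1.5-fold or more numbered 5 lower (25%, background 14.6%) and 0 higher (background 11.3%). The median was -0.14 with quantile normalization. Relative to genes of like signal it was -0.17, and 13 of 20 lay below the class median (65%, where 50% of genes do by construction). At least 1.5-fold below the class median were 2 of 20, beside 1463 of all 11915 genes. Hbs1l, which rescues stalled ribosomes, was lower on 3 probe sets, with 157 units in CCR4b RNAi cells against 262 in control cells on the brightest (1.67-fold). Paip1, a poly(A)-binding protein partner that stimulates initiation, read 25.8 units in CCR4b RNAi cells against 62.7 in control cells (2.43-fold lower), with a second probe set below the floor in the control. Paip2b read 129 units in CCR4b RNAi cells against 204 in control cells (1.58-fold lower), with 17.5 units after CCR4b RNAi and a control value below the floor on its other probe set. Pabpc4 read 298 units in CCR4b RNAi cells against 450 in control cells (1.51-fold lower) on a probe set that can cross-hybridise. Its other probe set read 275 units in CCR4b RNAi cells against 346 in control cells (log2 ratio -0.33). Mcts2, a relative of the recycling factor gene Mcts1 that may share its signal, read 93.5 units in CCR4b RNAi cells against 200 in control cells (2.14-fold lower), where Mcts1 itself read 353 units in CCR4b RNAi cells against 422 in control cells. Pabpc1, the main cytosolic poly(A)-binding protein and the common partner of eIF4G and the deadenylases, read 3210 units in CCR4b RNAi cells against 3467 in control cells (log2 ratio -0.11).

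Enzymes that modify eIF5A and eEF2, with the polyamine enzymes that supply hypusine, were lower in 9 of 10 measured genes (90%, background 56%), with a median of -0.41, and 2 were at least 1.5-fold lower (20%, background 14.6%). Odc1, ornithine decarboxylase, read 210 units after CCR4b RNAi and 472 in the control (2.25-fold lower) and had log2 ratios of -1.41 and -0.16 on its other probe sets. Dph6, of the diphthamide pathway that modifies eEF2, read 46.8 units in CCR4b RNAi cells against 77.3 in control cells (1.65-fold lower). The hypusine enzymes Dhps and Dohh read 85.0 units in CCR4b RNAi cells against 102 in control cells, and 67.8 units in CCR4b RNAi cells against 67.5 in control cells.

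Mitochondrial translation factors had a median of -0.50 over 11 measured genes, and differences of 1.5-fold or more numbered 5 lower (45.5%, background 14.6%) and 1 higher (9.09%, background 11.3%). Tufm, the mitochondrial EF-Tu, was lower on both probe sets, with 34.2 units in CCR4b RNAi cells against 64.8 in control cells and then 15.3 units in CCR4b RNAi cells against 47.1 in control cells (1.89-fold on the first). Its exchange factor gene Tsfm read 29.0 units in CCR4b RNAi cells against 55.4 in control cells (1.91-fold lower), and Mrrf, the recycling factor, read 116 units in CCR4b RNAi cells against 182 in control cells (1.57-fold lower). Gfm2 read 14.8 units in CCR4b RNAi cells against 45.3 in control cells on one probe set and 12.2 units in CCR4b RNAi cells against 11.0 in control cells on the other. Guf1 read 14.9 units in CCR4b RNAi cells against 9.16 in control cells (1.62-fold higher), close to the floor.

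**Figure D5:**
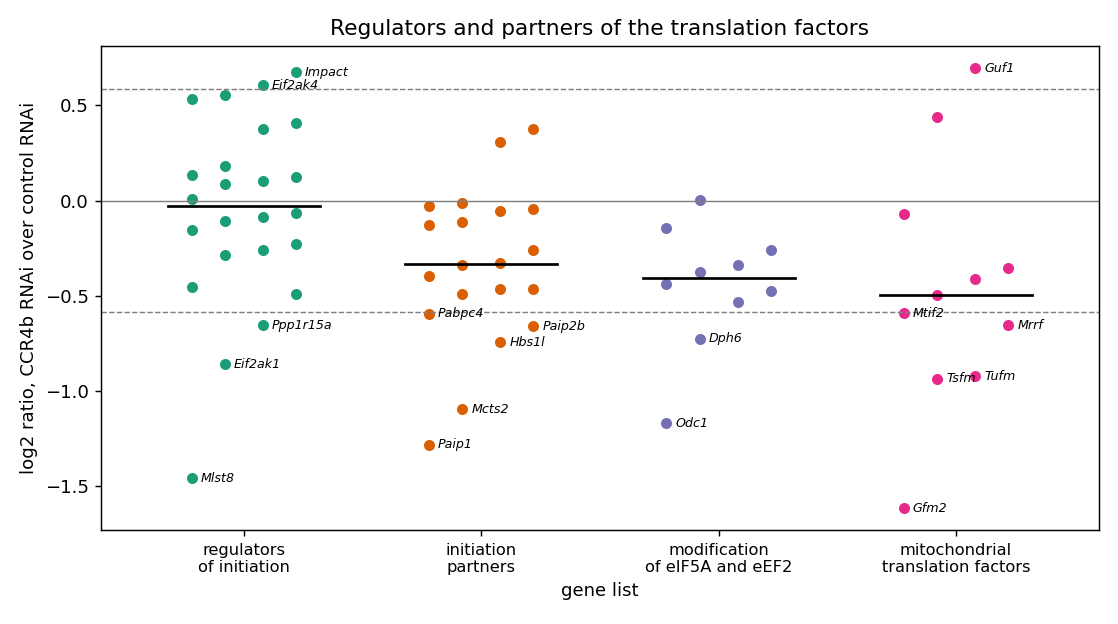
Log2 ratio of CCR4b RNAi over control RNAi for each measured gene of 4 lists around the translation factors, with a bar at each median, dashed lines at 1.5-fold and names for genes beyond them. Regulators of initiation centre on 0 (median -0.03 as deposited, above 0 under 4 of the alternatives), whereas the other lists have medians of -0.33, -0.41 and -0.50.

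Promoter sequence was examined because members leaned the same way. RefSeq promoter windows (GRCm38.p6, 250 bases before to 50 after the annotated start) were available for 43 of the 54 measured members. The E-box CACGTG, a palindrome bound by MYC family and other factors, was found in windows of 12 of the 43 genes (27.9%), beside 11.6% of the 9663 measured genes with a window. Members with the motif had a median log2 ratio of -0.23 and those without it -0.41. The windows below are shown because carriers cover members that were lower (Eif4a1, Eif3k, Eif4e), little different (Eef2) and higher (Eef2k, Eif5a2), with the motif in capitals.
Eif4a1: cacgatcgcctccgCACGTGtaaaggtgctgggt
Eif3k: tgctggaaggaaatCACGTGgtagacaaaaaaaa
Eif4e: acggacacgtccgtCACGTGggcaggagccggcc
Eef2: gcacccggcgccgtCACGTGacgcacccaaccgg
Eef2k: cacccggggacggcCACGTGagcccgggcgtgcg
Eif5a2: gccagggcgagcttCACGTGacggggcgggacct
These lie at chr11:69672593-69672626 (minus strand, motif starting at -189 from the annotated start), chr7:28981913-28981946 (minus, -44), chr3:138527190-138527223 (plus, -64), chr10:81176574-81176607 (plus, -43), chr7:120842786-120842819 (plus, -31) and chr3:28781146-28781179 (plus, -117), in the same order. The higher ratio of Eif5a2 rests on a dim probe set (30.4 units after CCR4b RNAi and 15.2 in the control). Whether the motif bears on the ratios was not tested.

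Other motifs were searched on both strands in the same windows. The ETS-type motif CCGGAAGT was in 8 of 43 (18.6%, beside 8.88%), with medians of -0.40 with it and -0.34 without it. Windows of 1 member (Eef2) held the cAMP response element TGACGTCA (2.33%, beside 3.43%), and 0 of 43 held TTGCATCA, a C/EBP-ATF element (0.71% of all). Many translation factor mRNAs are known to begin with a terminal oligopyrimidine tract, a C followed by further C or T bases at the cap, which places their translation under mTOR control. A run of at least 5 such bases that began with C within 5 bases of the annotated start was found in 10 of 43 members (23.3%, beside 23.9% of all genes). Because runs up to 5 bases before or after that start were accepted, the count cannot single out true tracts at the cap. Median log2 ratios were -0.33 with the run and -0.38 without it. Starts with long runs are shown, as 8 bases before and 22 from the start, with the run in capitals. The X-linked and Y-linked eIF2 gamma genes both carry a run, and Eif2s3y was dim (20.6 units after CCR4b RNAi and 10.5 in the control).
Eif2s3x: gcattttCCTTTTCTCTCCgagcaagatgg
Eif2s3y: ccacagccaCTTCCTTCTTTCgtgagcaag
Eif3f: taggCTCTCTCTCTTTCTCggcaagatggc
Eif3l: gttcttcttccgCTCTCTCCCacgggcttc
The runs are 12, 12, 15 and 9 bases long, at chrX:94212630-94212659 (minus strand), chrY:1010587-1010616 (plus), chr7:108934407-108934436 (plus) and chr15:79075215-79075244 (plus). Within eIF3, the genes shown had log2 ratios of -0.18 (Eif3f) and -0.80 (Eif3l). Whether the run bears on the ratios was not tested.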

How the data were processed

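Total RNA of 2 NIH3T3 cultures was hybridised to 1 array each. The authors deposited linear intensities per probe set, computed in GCOS with a global normalization, per the series design text. The GCOS version and scaling target are not stated, and no detection calls were used. Upper quartiles were 35.8 units (CCR4b RNAi) and 35.9 units (control). Of 45101 probe sets, 34958 carry 1 symbol in the platform annotation, 932 several and 9211 none listed. Only the first kind was used.

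Signals were raised to the floor and turned into log2 ratios, and each gene was read from its brightest probe set by mean log2 signal. Robust SDs come from 10 classes of mean signal and mix culture differences with measurement error. Identifiers ending in _x_at or _s_at were read as open to cross-hybridisation. Besides those marked above, the probe sets that stand for Eif2s3x, Eif3c, Eif4g2, Eif4ebp1, Odc1 and Tufm are of this kind. The rule for named genes took the 3 highest and 3 lowest of each factor, all members at 1.5-fold, and up to 3 per direction of each list. Other members named, and Mcts1, Pabpc1, Dhps, Dohh and the other probe sets, were added for their roles after their values were seen. Members, lists and rules were chosen with earlier results of these data known. Array number limits precision. Scripts (Python 3.11.15, numpy 2.4.6, pandas 2.3.3, statsmodels 0.14.6) were tested on simulated data.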

Additional observations from a re-analysis of the deposited data

How the results depend on the processing

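Directions of the 8 factor medians and of the overall median held under every alternative run, while sizes followed the scaling. The overall median (-0.35) was -0.44 with each array divided by its median, -0.23 with quantile normalization and -0.22 with loess (span 0.3), and 50, 42 and 43 of 54 members were below 0 in the same order. Genes at least 1.5-fold lower numbered 6 instead of 10 with quantile normalization, loess or the median over probe sets, and 6 when regulators, accessory proteins and Eef1aknmt were left out (an alternative chosen after seeing the data). The 6 are 11.1% of the members under the first 3, below the 13.0%, 13.2% and 12.7% of all genes, whereas 18.5% stood above 14.6% at the deposited scale. With regulators, accessory proteins and Eef1aknmt left out, the 6 are 14.3% of 42 genes, beside 14.6% of all genes. The genes left out there included Eefsec, an elongation factor gene that was 1.80-fold lower, and Eif2a and Eif2d. That count thus depends on which genes are called factors. Members at least 1.5-fold higher numbered 1 instead of 3 with the floor at the 75th percentile (1.96%, beside 6.48% of all genes). The eIF3 and eIF4 medians were -0.15 and -0.20 with quantile normalization, -0.15 and -0.20 with loess, and -0.20 and -0.22 with the median over probe sets, which gave eIF2 -0.19. Over all genes, counts lower and higher were 1744 and 1352, and 2259 and 1083 with each array divided by its median, a split that shifts toward lower. They were 3516 and 3222 with the floor at the 25th percentile and 1025 and 472 with it at the 75th, where more or fewer genes are measured.

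The alternatives for the lists around the factors were added after seeing the data. The regulator list median (-0.03) was -0.12 with division by the median, 0.042 with quantile normalization, 0.038 with loess, 0.0076 with the floor at the 75th percentile and 0.039 with the median over probe sets. The partner list median was -0.43, -0.14 and -0.15 under the first 3. With the median over probe sets, Eif2ak1 reversed to 0.083 and Paip2b to 0.23. The cause of these differences was not tested. Of the 601 values of single genes under alternatives, 581 stayed within the probe-set spread of a gene (0.30 log2 units). No paired analysis was possible because each group holds 1 array.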

Other observations

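Probe sets annotated with several symbols, left out above because their gene cannot be settled, read further translation factor genes. The probe set of Eif4a3, the helicase of the exon junction complex, shared with the predicted gene Gm5576, read 256 units after CCR4b RNAi and 485 in the control (log2 ratio -0.92). The brighter one of Eef1g, an eEF1B subunit, shared with Gm29753, read 2743 units in CCR4b RNAi cells against 3403 in control cells (log2 ratio -0.31). Those of Eif3j1 and Eif3j2, genes of a loosely bound eIF3 subunit, read 192 units in CCR4b RNAi cells against 268 in control cells, 280 units in CCR4b RNAi cells against 348 in control cells, and 40.8 units in CCR4b RNAi cells against 46.5 in control cells (log2 ratios -0.48, -0.31 and -0.19). The probe set shared by Ankhd1 and Eif4ebp3 read 68.5 units in CCR4b RNAi cells against 57.5 in control cells (log2 ratio 0.25). Of the 8 such probe sets, 2 were below the floor on both arrays.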
